A study of Homo sapiens with 5 samples.

Results

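The comparison described here is that of cells grown with and without the Wnt inhibitor XAV939 and harvested on day 10 of neural differentiation (D10). Its members are the 2352 cells of D10_XAV939 and the 2647 cells of D10_dSMADi that had at least 10000 unique molecular identifiers (UMIs, each counting 1 captured transcript), at least 3000 genes and a mitochondrial share under 10.0%. They are 4999 of the 11357 cells that passed the same limits in the 5 tagged conditions of the pool. All cells came from WA09, an established human embryonic stem cell line of wild-type genotype, and both D10 cultures received dorsomorphin and SB431542, which block BMP and TGF-β/activin signaling (dual SMAD inhibition, dSMADi). D10_XAV939 also received 10 μM XAV939 from D0, and the other 3 conditions were undifferentiated cells (D0), D5_dSMADi and D5_XAV939. The 5 cultures were marked with lipid-anchored oligonucleotide tags and loaded together for droplet-based sequencing, so the D10 cells shared 1 droplet run. Each condition was 1 culture, without replicates. No difference was therefore tested, no p-value is given, and every interval covers counting error only. The study asked how early Wnt inhibition acts on the progenitors from which GnRH neurons are later made.

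Wnt proteins leave the producing cell with the help of the carrier WLS and bind Frizzled receptors together with LRP5 or LRP6. Without that signal, a destruction complex built on AXIN, APC and GSK3 marks β-catenin for degradation, and with it β-catenin enters the nucleus and works with TCF/LEF factors. XAV939 inhibits the tankyrases TNKS and TNKS2, enzymes that mark AXIN for degradation, and so stabilizes the destruction complex. In the embryo, low Wnt activity is needed for the most anterior brain, including the telencephalon and eye field, while the dorsal midline of the telencephalon is itself a source of Wnt.

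The files held 2638 barcodes of D10_XAV939 and 2778 of D10_dSMADi. The study gives the same numbers of analyzed cells. The limits used here removed 286 and 131 barcodes, and adding the published bounds on complexity (log genes over log UMIs) would leave 2168 and 2416. The cells kept held 73989552 UMIs in D10_XAV939 and 96609406 in D10_dSMADi, with medians of 25495.5 and 32391 UMIs per cell. No barcode was shared between conditions, and in every cell the most abundant tag was that of its own condition. Both follow from the authors' assignment of barcodes by tag and are no independent check of it. The label of neural progenitors was checked on 10 progenitor markers. All 10 were above 10 CPM in at least 1 culture (a gene's summed UMIs scaled to the same fixed total in every condition), among them SOX2 with 715 and 1032 CPM and the filament gene NES with 472 and 558 CPM in D10_dSMADi and D10_XAV939. The 10 genes summed to 3601 CPM in D10_dSMADi and 4046 CPM in D10_XAV939, against 1033 CPM at D0. As a sum, the markers were also present at D0, so passing 10 CPM was not read by itself as setting these cells apart from D0. The stem cell gene POU5F1 stood at 15.3 and 15.4 CPM, against 1246 CPM at D0. A list of 8 pluripotency markers summed to 572 and 603 CPM, against 4802 CPM at D0.

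Most of the transcriptome was at close levels in D10_XAV939 and D10_dSMADi, while a small set of genes differed several-fold. A floor of 10 CPM in either culture left 8731 genes, of which 94 (1.08%) were at least 2-fold higher and 109 (1.25%) at least 2-fold lower in D10_XAV939, on the scale of log2(CPM + 1). Together these were 203 genes, or 2.33%. The shares of 1.08% and 1.25% over all genes are the background for the counts within gene lists given below. The median log2 ratio over all 8731 genes was 0.03, and 93.3% of the genes lay within 1.5-fold. At D5 the same rule gave 43 higher (0.526%) and 42 lower (0.514%) of 8179 genes, or 1.04% in all. The scatter of summed UMIs shows the genes past 2-fold at all levels of expression, from VAX1 and RARB at the low end to DLK1 and GPC3 at the high end.

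**Figure D1:**
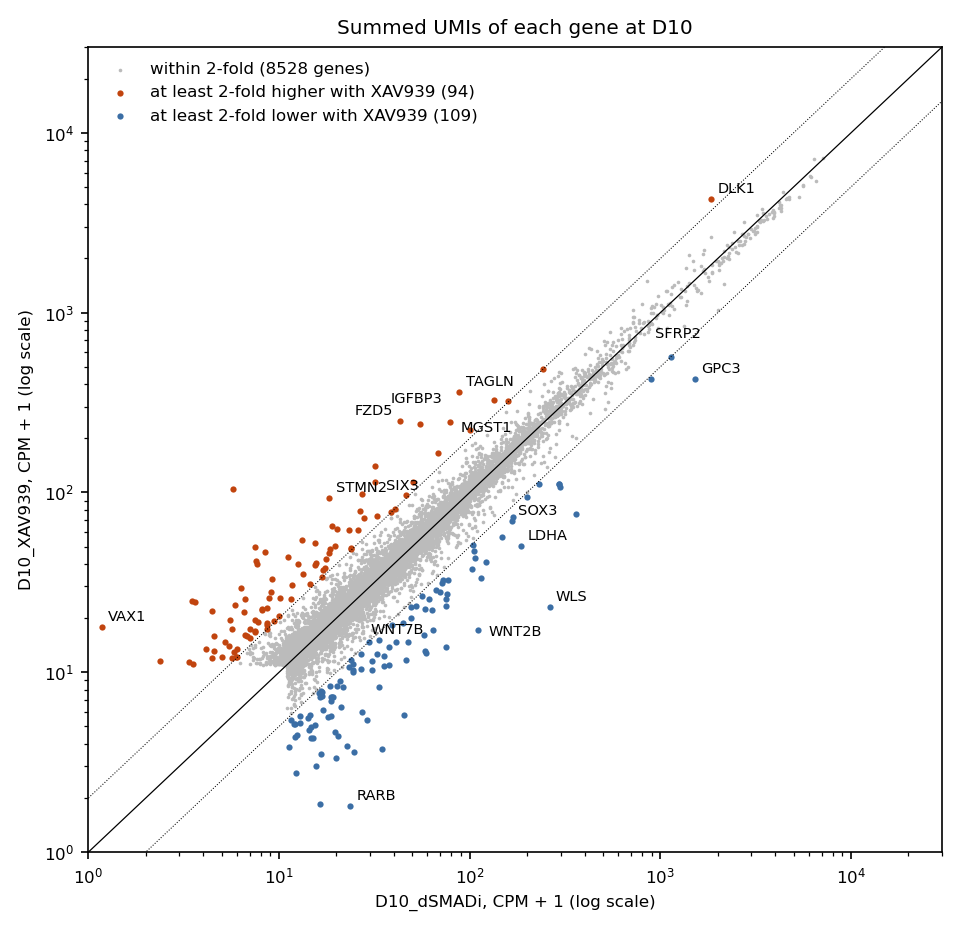
Each point is 1 of 8731 genes, with its level in D10_dSMADi on the x axis and in D10_XAV939 on the y axis, both as CPM + 1 on log scales. The solid line marks equal levels and the dotted lines mark 2-fold; 94 genes (orange) lie above the upper and 109 (blue) below the lower line.

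Among genes of at least 50 CPM, the largest ratios in favor of XAV939 included those of a Frizzled receptor, an eye field regulator, neuronal cytoskeleton genes and growth factor feedback genes. FZD5, the Wnt receptor of the early eye field (chr2:207762598-207769906 on GRCh38 with GENCODE 44 annotation), had 42.1 CPM in D10_dSMADi and 249 CPM in D10_XAV939, a log2 ratio of 2.56 (95% interval 2.52 to 2.61). The level with XAV939 was thus 5.92 times that without. SIX3, a homeobox gene of the anterior forebrain and eye field that represses Wnt genes in the embryo, had 30.9 and 114 CPM, a log2 ratio of 1.88 (1.82 to 1.94).

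The other genes of this group had other roles. IGFBP3, a secreted carrier of insulin-like growth factors, had 53.6 CPM without and 240.1 CPM with XAV939. SPRY2, a feedback inhibitor of FGF signaling, had 26.3 and 97.0 CPM, and FGFBP3, which binds FGFs outside the cell, 25.7 and 77.6 CPM. The cystine transporter gene SLC7A11 had 17.9 and 63.9 CPM and MGST1, which encodes a membrane-bound glutathione transferase, 78.0 and 246 CPM. These 5 genes were all higher with XAV939 at D5 too, with log2 ratios of 1.82, 0.92, 1.30, 0.87 and 0.56. RHOU, an atypical small GTPase gene, had 12.1 and 53.0 CPM, CAPN6, a calpain family gene, 14.4 and 51.2 CPM, and SOX9, a transcription factor of neural progenitors and neural crest, 22.3 and 60.6 CPM. TAGLN, which encodes the actin-binding protein transgelin, had 87.1 and 359.8 CPM, unevenly spread over cells. Of its UMIs, 50.0% lay in 1.28% of D10_dSMADi cells and in 3.57% of D10_XAV939 cells, while 26.7% and 41.4% of cells had a UMI after thinning each cell to 10000 UMIs, against 21.8% at D0. The neuronal genes STMN2 and NEFM, also in this group, are described with the neuronal cells. SOX9 was the last gene so named, at 1.41 on the log2(CPM + 1) scale, and CXXC4 the next, at 1.37.

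The largest ratios in the other direction included those of genes for Wnt proteins and their release. WLS, the Wnt carrier (chr1:68098473-68233120), had 262 CPM in D10_dSMADi and 22.04 CPM in D10_XAV939, a log2 ratio of -3.57 (-3.64 to -3.50), or 11.9 times lower. WNT2B had 110.1 and 16.1 CPM, a log2 ratio of -2.77 (-2.86 to -2.68), and WNT7B had 63.0 and 16.2 CPM, a log2 ratio of -1.96 (-2.05 to -1.87). Both encode Wnt ligands. EPHA7, an ephrin receptor gene, had 56.7 and 15.1 CPM. LDHA, the enzyme that makes lactate from pyruvate, had 185 and 49.3 CPM, and EGLN3, an oxygen-dependent prolyl hydroxylase, 74.1 and 22.5 CPM. GPC3, a cell-surface proteoglycan gene, was abundant in both, with 1524 and 424 CPM. Also named were CA4 (carbonic anhydrase), NRIP3, the noncoding RNA gene PURPL, the RNA-binding protein gene ZFP36L2, the zinc finger gene ZNF503 and the imprinted zinc finger gene PLAGL1, with log2 ratios between -2.54 for CA4 and -1.56 for PLAGL1. PLAGL1 was the last named at -1.52 on the log2(CPM + 1) scale, and PLIN2 the next at -1.49.

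The D5 pair of cultures gives the same comparison 5 days earlier. Of the 15 largest differences on the higher side, 12 had a log2 ratio above 0 at D5, and of the 15 on the lower side, 14 had one below 0. Of all 94 higher genes, 56 had at least 10 CPM at D5, of which 48 were higher there and 15 at least 2-fold. Of the 109 lower genes, 59 had that level, of which 56 were lower and 17 at least 2-fold. Over all 7993 genes with at least 10 CPM on both days, 58.1% were higher and 41.9% lower with XAV939 at D5. The pattern by day differed between genes. NRIP3, WNT7B, LDHA and EGLN3 were already at log2 ratios of -2.12, -2.25, -2.24 and -2.17 at D5, whereas WNT2B stood at 0.05. WNT2B had 8.08 CPM in D5_dSMADi and 8.38 in D5_XAV939, so it reached its D10_dSMADi level of 110.1 CPM after D5.

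**Figure D2:**
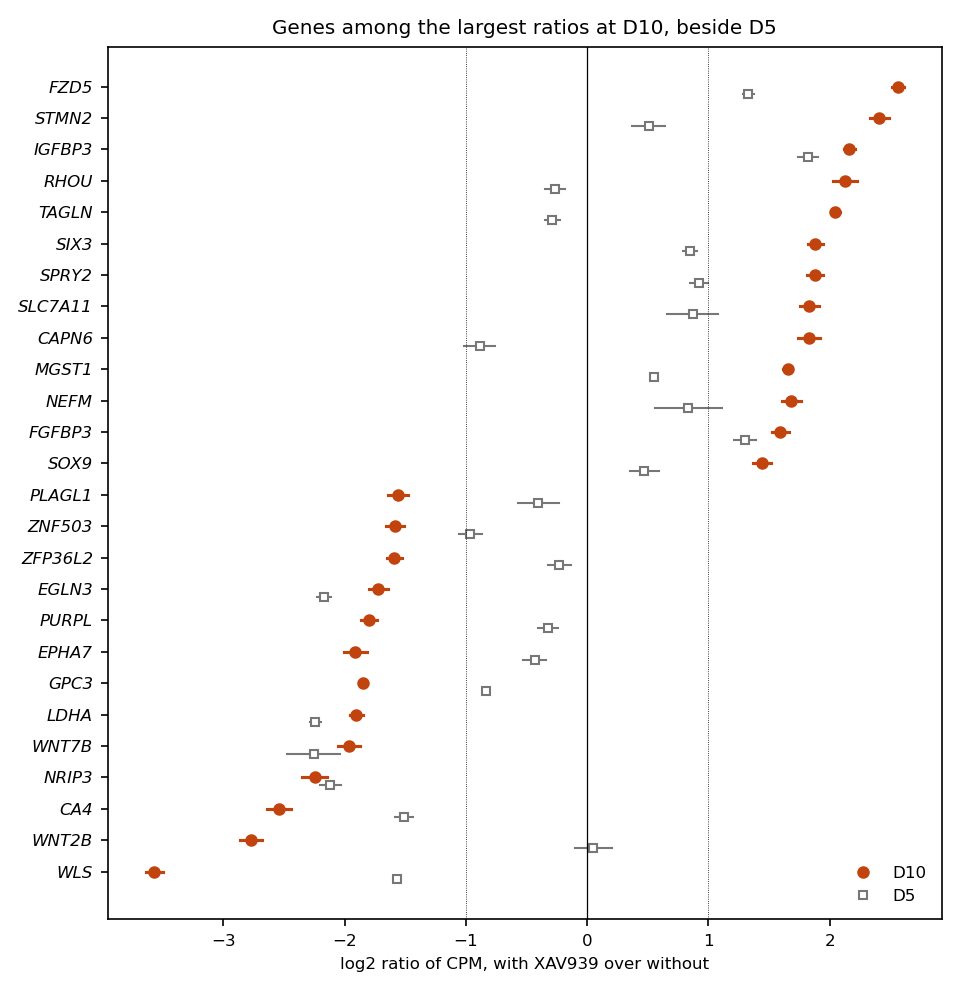
Log2 ratio of CPM with XAV939 over without for genes among the 15 largest differences in each direction at D10 (filled circles), beside the ratio at D5 (open squares); bars are 95% intervals of counting error and dotted lines mark 2-fold. RHOU, TAGLN and CAPN6 lie on opposite sides of 0 on the 2 days, and WNT2B lies at 0.05 at D5.

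The transcripts of the destruction complex itself differed little. All 12 genes of this list were measured above 10 CPM and none reached 2-fold; their median log2 ratio was 0.04, beside 0.03 over all genes, and the range was -0.13 to 0.34. TNKS, the target of XAV939, had 53.7 CPM without and 54.7 CPM with the inhibitor, and TNKS2 had 32.0 and 40.7 CPM. The β-catenin gene CTNNB1 had 114 and 105 CPM. XAV939 acts on the stability of AXIN protein, which these transcript counts do not measure.

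Genes that β-catenin and TCF/LEF factors commonly induce, which serve as readouts of the pathway, were low in both cultures. Only 2 of 14 reached 10 CPM, LEF1 with 10.1 and 10.1 CPM and the receptor-removing ubiquitin ligase gene ZNRF3 with 12.9 and 10.6 CPM in D10_dSMADi and D10_XAV939. Neither reached 2-fold. AXIN2, the most widely used readout, had 4.38 and 3.32 CPM, a log2 ratio of -0.40 (-0.63 to -0.17), after 6.99 CPM at D0. TCF7 had 5.96 and 8.28 CPM, NKD1, an inhibitor of the pathway, 2.68 and 3.58 CPM, and LGR5, a receptor for R-spondins, 2.83 and 6.34 CPM. The transcription factor gene SP5 had 1 UMI in each culture, and the Wnt antagonist gene DKK1 had 3 UMIs without and 2 with XAV939. The summed level of the 14 genes was 44.7 CPM without and 47.0 CPM with XAV939.

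The promoters of these targets were searched for the TCF/LEF core, spelled as CAAAG preceded by 2 bases that are each A or T, on both strands, from 250 bases before to 50 bases after each RefSeq start (GRCh38.p14). The table held 9 of the 14 targets, and 3 of them, TCF7, SP5 and DKK1, had a match (33.3%), beside 16.4% of 27305 genes with a promoter in the table. Among the 15 largest differences in each direction, 3 of 8 higher genes in the table (SPRY2 and CAPN6 among them) and 1 of 8 lower genes (PLAGL1) had one. The following sequences, each 300 bases from 5′ to 3′ on the strand of the gene, show the 3 targets with a match and, for contrast, 2 promoters of genes with large ratios and no match, FZD5 and WLS. Capitals mark the matches.
SP5 (chr2:170715087-170715386, plus strand): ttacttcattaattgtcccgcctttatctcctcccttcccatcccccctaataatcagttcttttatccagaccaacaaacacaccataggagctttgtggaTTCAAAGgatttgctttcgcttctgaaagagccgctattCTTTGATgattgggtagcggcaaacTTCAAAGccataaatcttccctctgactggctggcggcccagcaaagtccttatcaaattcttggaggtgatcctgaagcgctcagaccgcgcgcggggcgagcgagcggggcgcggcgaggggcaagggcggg
DKK1 (chr10:52314031-52314330, plus strand): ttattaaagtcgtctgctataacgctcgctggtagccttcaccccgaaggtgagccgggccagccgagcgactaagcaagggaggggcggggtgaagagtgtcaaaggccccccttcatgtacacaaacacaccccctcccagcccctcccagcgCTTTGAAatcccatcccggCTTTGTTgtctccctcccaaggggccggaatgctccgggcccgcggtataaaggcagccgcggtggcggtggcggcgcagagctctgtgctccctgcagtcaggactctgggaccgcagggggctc
TCF7 (chr5:134123368-134123667, plus strand): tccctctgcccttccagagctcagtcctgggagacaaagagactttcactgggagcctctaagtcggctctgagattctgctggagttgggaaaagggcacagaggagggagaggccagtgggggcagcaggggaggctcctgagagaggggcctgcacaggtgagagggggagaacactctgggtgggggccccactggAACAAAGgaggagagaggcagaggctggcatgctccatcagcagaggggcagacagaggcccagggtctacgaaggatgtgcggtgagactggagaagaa
FZD5 (chr2:207769857-207770156, minus strand): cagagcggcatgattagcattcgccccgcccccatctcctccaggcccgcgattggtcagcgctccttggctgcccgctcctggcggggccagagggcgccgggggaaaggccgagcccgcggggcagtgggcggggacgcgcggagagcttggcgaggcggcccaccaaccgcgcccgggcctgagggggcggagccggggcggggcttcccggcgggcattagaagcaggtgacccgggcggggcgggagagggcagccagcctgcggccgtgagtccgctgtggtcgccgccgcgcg
WLS (chr1:68232474-68232773, minus strand): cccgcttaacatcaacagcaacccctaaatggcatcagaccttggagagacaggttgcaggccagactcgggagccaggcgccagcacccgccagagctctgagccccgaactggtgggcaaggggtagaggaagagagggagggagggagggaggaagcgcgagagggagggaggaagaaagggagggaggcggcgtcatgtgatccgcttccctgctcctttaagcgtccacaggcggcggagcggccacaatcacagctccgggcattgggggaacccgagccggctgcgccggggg
SP5 thus had 3 matches within 150 bases of its start and DKK1 had 2, while both were almost without UMIs in the 2 cultures. The TCF7 start shown is the downstream one of 2 in the table, and the other had no match. A match is a description of the letters, and binding was not measured.

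Among genes for Wnt ligands and their release, those past 2-fold were lower with XAV939. Of 21 genes on this list, 4 reached 10 CPM, and WLS, WNT2B and WNT7B of these were at least 2-fold lower with XAV939. The fourth, WNT5B, which encodes a ligand that mostly acts without β-catenin, had 78.7 CPM in D10_dSMADi and 101 CPM in D10_XAV939. The median log2 ratio of the 4 was -2.30. Below 10 CPM, WNT8B, a ligand gene of the cortical hem and hippocampal primordium, had 1.43 and 0.0541 CPM, and WNT7A had 0.362 CPM without XAV939 and 0 UMIs with it, which allows up to 0.0405 CPM. WNT1 and WNT3A, dorsal midline ligands, stayed at or below 0.0414 CPM in both. Together the 21 genes gave 520.5 CPM in D10_dSMADi and 163 CPM in D10_XAV939.

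Among the Wnt receptors of at least 10 CPM, those past 2-fold were higher. Of 17 genes, 9 reached 10 CPM, and FZD5, FZD8 and LGR4 were at least 2-fold higher with XAV939, with none lower. FZD8 had 3.46 and 21.0 CPM, a log2 ratio of 2.60 (2.43 to 2.78), and LGR4, a receptor for R-spondins, 17.2 and 44.9 CPM. The abundant receptor genes FZD2 and FZD3 had 184 and 149 CPM and 188 and 242 CPM, and the co-receptor gene LRP6 had 58.2 and 63.1 CPM. The other Frizzled genes of at least 10 CPM, FZD2, FZD3 and FZD7, had log2 ratios between -0.50 and 0.36. Under 10 CPM, FZD1 had 2.48 and 8.06 CPM and FZD9 2.87 and 1.16 CPM, with log2 ratios of 1.70 and -1.30. Of the 18 secreted modulators, 4 reached that level. SFRP2, a soluble Wnt-binding protein, had 1139.6 and 569 CPM and so was 2-fold lower, SHISA2, which retains Frizzled and FGF receptors inside the cell, had 8.19 and 32.1 CPM and so was higher, and SFRP1 (730.2 and 689.6 CPM) and FRZB (42.9 and 65.4 CPM) were within 2-fold. At D5 SHISA2 had 95.1 CPM without and 40.0 CPM with XAV939, the opposite order.

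**Figure D3:**
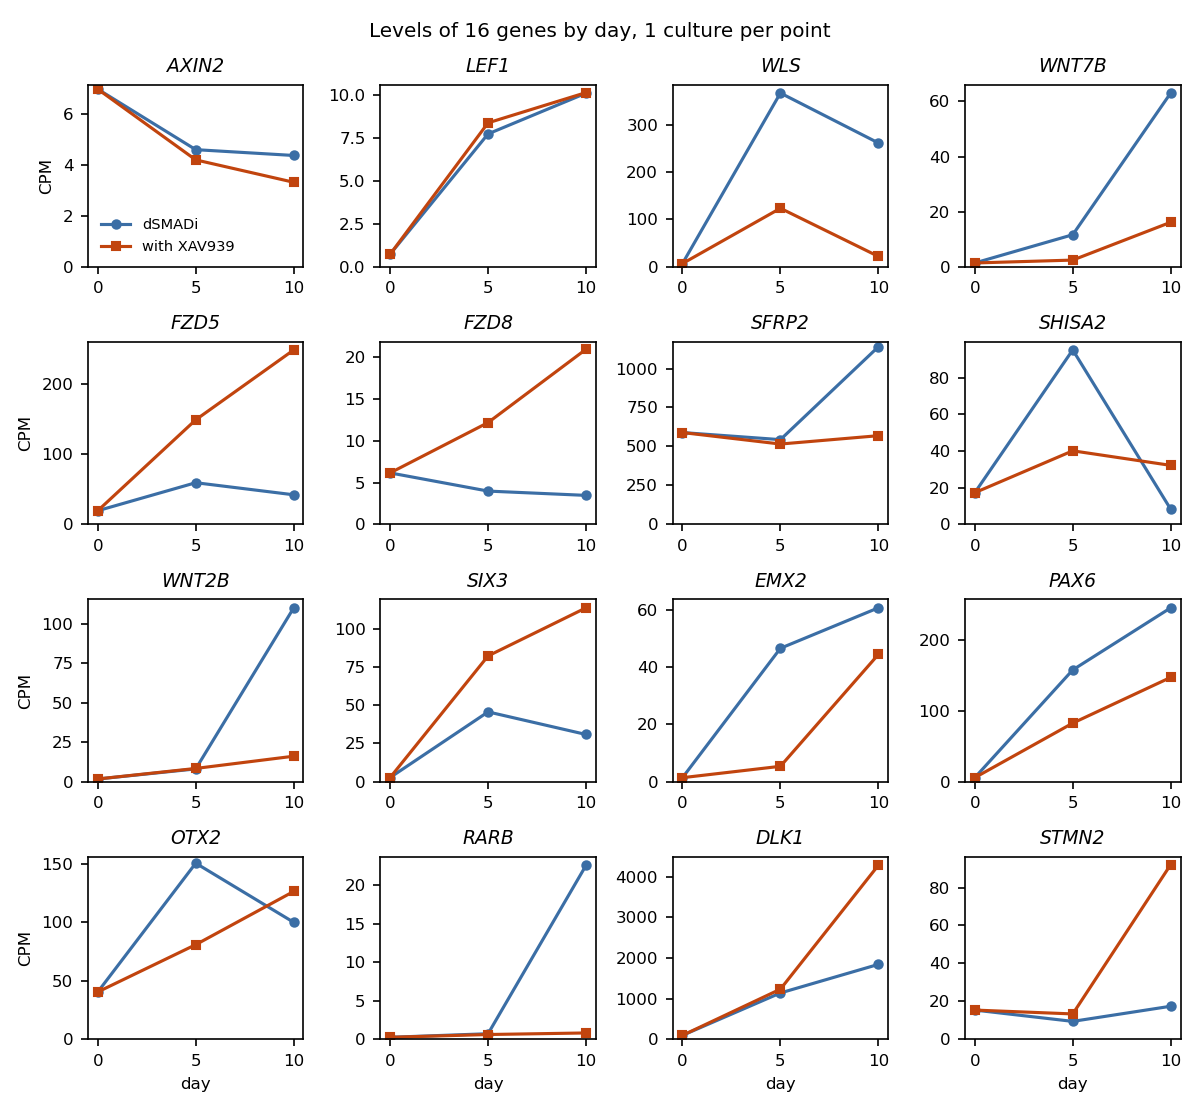
Level in CPM of 16 genes at D0, D5 and D10 with dSMADi alone (blue circles) and with XAV939 (orange squares), each point 1 culture and each panel with its own axis from 0; both lines start at the same D0 culture. AXIN2 and LEF1 run close together, WLS and WNT7B part by D5, and WNT2B, RARB and STMN2 part between D5 and D10.

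Regulators of the anterior forebrain and eye field were divided. Of 12 genes, 9 reached 10 CPM, of which 3, SIX3 and VAX1 among them, were at least 2-fold higher with XAV939 and none lower, with a median log2 ratio of 0.32. VAX1, a homeobox gene of the ventral forebrain and optic stalk, had 0.176 CPM in D10_dSMADi, from 17 UMIs, and 16.8 CPM in D10_XAV939, from 1242 UMIs, a log2 ratio of 6.58 (5.89 to 7.36). SIX6, an eye field gene, had 0.331 and 3.88 CPM, and VAX2 0.476 and 2.20 CPM, both under 10 CPM. FEZF1 had 32.5 and 53.7 CPM, FEZF2 196 and 168 CPM, LHX2 88.1 and 102 CPM, and the eye field gene RAX 53.3 and 34.0 CPM. These 4 forebrain genes stayed within 2-fold. SIX3 was already at 45.7 and 82.3 CPM at D5.

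Genes of the dorsal telencephalon and the cortical hem were mostly lower. Of 17 genes, 10 reached 10 CPM, 9 of them with a log2 ratio below 0, and OTX1 and DMRTA2 passed 2-fold, for a median of -0.77 beside 0.03 over all genes. OTX1 had 14.1 and 3.30 CPM and DMRTA2, a cortical regulator, 31.5 and 11.7 CPM. In cells with no MKI67 and no TOP2A UMI, described further on, DMRTA2 was within 2-fold, at a log2 ratio of -0.68. Over all cells, the other dorsal regulators differed by less than 2-fold. PAX6 had 245 and 147 CPM, EMX2 60.6 and 44.4 CPM, GLI3 217 and 146 CPM, and the nuclear receptor genes NR2F1 and NR2F2 512 and 292 CPM and 278 and 156 CPM. OTX2 alone among the 10 had a ratio above 0, with 99.9 CPM in D10_dSMADi and 126 CPM in D10_XAV939. EMX2 and OTX2 had different ratios in the D5 and D10 cultures, a difference that was not tested. EMX2 had 46.5 and 5.36 CPM at D5, a log2 ratio of -3.12 against -0.45 at D10, and OTX2 had 150.5 and 80.8 CPM at D5, a log2 ratio of -0.90 against 0.34. DMRT3, under 10 CPM, had 7.70 and 1.23 CPM, and the choroid plexus gene TTR had 0 UMIs.

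Most ventral and GABAergic genes were near absent in both cultures at D10, and 18 of the 19 stayed under 10 CPM. The 1 gene above that level was at least 2-fold lower with XAV939. The ventral factor genes DLX1, DLX2, DLX5 and DLX6 lay between 0.0518 and 0.279 CPM in D10_dSMADi and between 0.149 and 0.460 CPM in D10_XAV939. DLX5 had 0.207 and 0.446 CPM, from 20 and 33 UMIs. NKX2-1 had 0 UMIs without XAV939, which allows up to 0.0311 CPM, and 13 UMIs with it. GAD1 had 0.0932 and 0.338 CPM, GAD2 0.435 and 0.122 CPM, and GNRH1, the hormone gene of the neurons the protocol aims at, 0.911 and 0.689 CPM, beside 0.669 CPM in undifferentiated D0 cells. The hedgehog genes PTCH1, GAS1, BOC and CDON were within 2-fold, with PTCH1, a readout of the pathway, at 53.4 and 33.7 CPM, and SHH itself was at 0.0414 and 0.0135 CPM.

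Posterior genes were low in both. Of 24 midbrain and hindbrain genes, 1 reached 10 CPM, IRX2 with 9.24 and 15.99 CPM, and the HOX genes of this list had at most 0.0828 CPM. IRX3 had 4.69 and 1.76 CPM, and BARHL1, a homeobox gene of the diencephalon and hindbrain, 3.86 and 0.0676 CPM.

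In the retinoid pathway, RARB was lower with XAV939 while abundant binding proteins were within 2-fold. RARB, a retinoic acid receptor gene that is itself a direct target of retinoic acid, had 22.6 CPM in D10_dSMADi and 0.797 CPM in D10_XAV939, a log2 ratio of -4.83 (-5.22 to -4.45). It had been at 0.697 and 0.594 CPM at D5. DHRS3, a retinaldehyde reductase gene, had 3.71 and 0.351 CPM, and ALDH1A1, a retinaldehyde dehydrogenase gene, 5.01 and 0.595 CPM. The binding protein genes CRABP1 (293 and 469 CPM) and CRABP2 (219 and 165 CPM) were within 2-fold. Of the 13 genes, 4 reached 10 CPM and RARB was the 1 past 2-fold.

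In the FGF pathway, 13 of 18 genes reached 10 CPM, with 2 higher, 2 lower and a median log2 ratio of 0.45. The receptor genes FGFR2 and FGFR3 were the lower ones, with 27.8 and 4.45 CPM and 13.3 and 3.798 CPM, while FGFR1 had 167 and 128 CPM. The higher ones were SPRY2 and the ligand gene FGF9, the latter with 6.06 and 16.3 CPM. SPRY4, a related feedback gene that stayed under 10 CPM, had 1.65 and 7.45 CPM, a log2 ratio of 2.18 (1.92 to 2.44). ETV1, ETV4 and ETV5, transcription factors induced by FGF, had log2 ratios of 0.75, 0.64 and 0.46, and the phosphatase gene DUSP6 had -0.99, after 1.16 at D5. FGF8, the ligand gene of the anterior neural ridge and counted with the anterior genes, had 16.8 and 21.3 CPM.

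In the BMP pathway, 5 of 13 genes reached 10 CPM. ID2 was higher with XAV939, with 17.5 and 47.3 CPM, and ID1 and ID3, readouts of BMP signaling, had 12.1 and 10.8 CPM and 33.9 and 46.7 CPM. At D5 ID3 had been at 1066 and 398 CPM and ID1 at 328 and 67.3 CPM, well above the D10 values in both arms. BMP4 had 0.797 and 0.0946 CPM. In the Notch pathway, 12 of 15 genes reached 10 CPM with a median log2 ratio of 0.00, and the ligand gene DLL3 was the 1 past 2-fold, with 8.35 and 18.2 CPM. Its log2 ratio was 1.12 over all cells and -0.13 without the cells at or above the neuronal limit described further on. The Notch effector genes HES5 and HES4 had 950.0 and 935 CPM and 315 and 283 CPM.

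DLK1, an imprinted gene for a noncanonical Notch ligand, was among the most abundant transcripts in which the cultures differed, with 1840.4 CPM in D10_dSMADi and 4284 CPM in D10_XAV939, a log2 ratio of 1.22 (1.21 to 1.23). At D5 it had 1137 and 1230.1 CPM. MEG3, the noncoding RNA gene of the same imprinted region on chromosome 14, had 7.17 and 21.2 CPM and so was also higher. DLK1 is expressed from the paternal and MEG3 from the maternal allele, and the counts do not separate alleles. Of 12 imprinted genes, 9 reached 10 CPM, with DLK1 and MEG3 higher, PLAGL1 lower and a median log2 ratio of 0.58. NNAT had 205 and 365 CPM, PEG10 163 and 245 CPM and MEST 206 and 187 CPM. In the insulin-like growth factor system, 6 of 10 genes reached 10 CPM and only IGFBP3 passed 2-fold. IGFBP2 had 1085 and 817 CPM and IGFBP5 267 and 417 CPM, with a log2 ratio for IGFBP5 of -0.79 at D5 and 0.64 at D10.

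Most metabolic genes differed by less than 2-fold, with the same sign in most members of each list. Of 12 genes of serine synthesis and of the stress factor ATF4, 10 reached 10 CPM. All 10 had log2 ratios above 0, from 0.17 to 1.01, with a median of 0.65, beside 0.03 over all genes. CHAC1, which degrades glutathione, was the 1 past 2-fold, with 37.7 and 77.1 CPM. The folate enzyme gene MTHFD2 had 93.1 and 171 CPM and the serine synthesis gene PSAT1 244 and 399 CPM. At D5 the median of this list was -0.05. Of 12 genes of glycolysis and low oxygen, 8 reached 10 CPM and 7 had log2 ratios below 0, with LDHA and EGLN3 past 2-fold and a median of -0.60, after -0.58 at D5. PGK1 had 283 and 185 CPM and ENO1 678 and 500.4 CPM. VEGFA, also induced by low oxygen, had 35.0 and 61.3 CPM. Whether medium, density or oxygen differed between the cultures was not tested.

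The genes of both cell cycle lists were within 2-fold between the whole cultures. After each cell was thinned to 10000 UMIs, 77.8% (95% Clopper-Pearson interval 76.1 to 79.5%) of D10_XAV939 cells and 72.3% (70.5 to 74.0%) of D10_dSMADi cells had a UMI of MKI67 or TOP2A, genes of dividing cells, against 93.7% of D0 cells. No condition without dividing cells gave a background for this share, so it was not read as a share of dividing cells. All 12 genes of G2 and M phase were within 2-fold with a median log2 ratio of 0.03. All 12 genes of S phase had log2 ratios above 0, from 0.10 to 0.72, and none reached 2-fold. Their median was 0.56, beside 0.03 over all genes. MCM2, a subunit of the replicative helicase, had 30.6 and 51.1 CPM, and UHRF1 had 26.9 and 44.6 CPM.

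**Figure D4:**
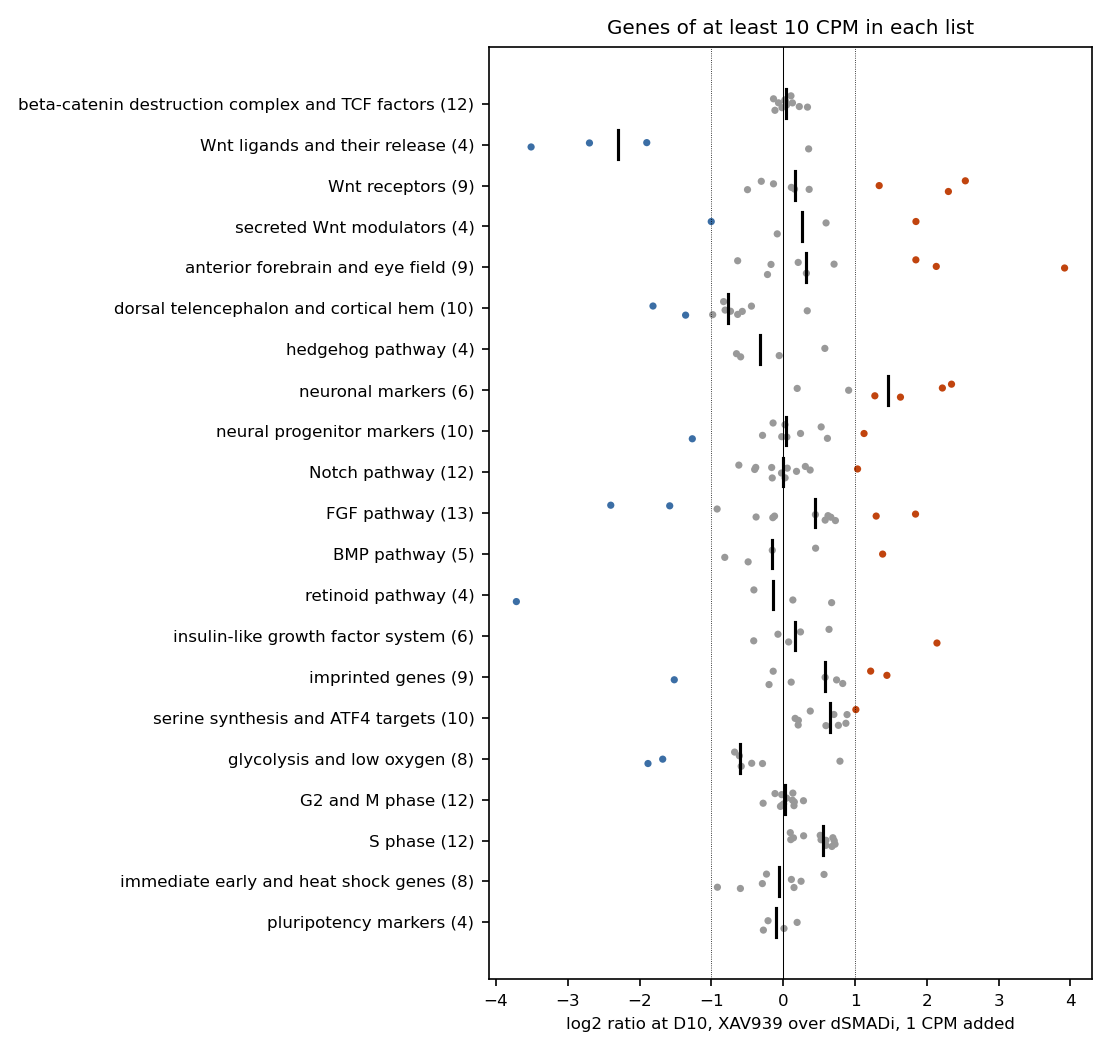
Log2 ratio at D10 (XAV939 over dSMADi, 1 CPM added) of each gene of at least 10 CPM in the lists with at least 3 such genes, whose number stands in parentheses. Black bars mark list medians, dotted lines 2-fold, and orange and blue points genes at least 2-fold higher and lower; the S phase list lies wholly above 0, and the glycolysis and low oxygen list lies below 0 except for VEGFA.

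A small group of cells with neuronal transcripts was present at D10, with a higher share in the culture with XAV939. Of the 12 neuronal markers, 6 reached 10 CPM over all cells, STMN2, NEFM, DCX and ELAVL3 were at least 2-fold higher, and none was lower. Cells with at least 10 UMIs summed over 12 neuronal markers, after thinning to 10000 UMIs, were 69 of 2352 in D10_XAV939 (2.93%, 95% interval 2.29 to 3.70%) and 21 of 2647 in D10_dSMADi (0.793%, 0.492 to 1.21%). There were 0 such cells of 2423 in D5_dSMADi, 2830 in D5_XAV939 and 1105 at D0, which allows shares of up to 0.124%, 0.106% and 0.271%. Only 2 cells of D10_XAV939 and 3 of D10_dSMADi lay within 2 UMIs of the limit. The cells at or above the limit had median depths of 22287 and 19722 UMIs, against 25704 and 32470.5 UMIs in the other cells. With 1 culture per condition, the spread of this share between cultures is unknown.

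Of 18 proneural factors, 2 reached 10 CPM over all cells, NHLH1, which was higher with XAV939 at 4.67 and 16.4 CPM, and HES6 at 10.9 and 20.03 CPM. In the cells at or above the limit STMN2, a microtubule regulator of growing axons, had 3473 CPM in D10_XAV939 and 2546 CPM in D10_dSMADi, and NEFM, a neurofilament subunit gene, 2325 and 2382 CPM. Genes outside the marker list were high there too. CRABP1 had 8909 and 6236 CPM, the cell cycle exit gene CDKN1C 736 and 822 CPM, the neuronal differentiation factor genes NHLH1 565 and 300.4 CPM and NEUROD1 245 and 105 CPM, and the Notch ligand gene DLL3 468 and 173 CPM. TBR1, a gene of glutamatergic neurons, had 57.1 and 63.8 CPM, and LHX1 had 75.2 and 285 CPM. TFAP2A, known from neural crest and surface ectoderm, had 255 and 63.8 CPM, against 3.104 and 0.416 CPM in the other cells. Cell cycle transcripts also differed between these sets, with TOP2A at 309.5 and 52.6 CPM, UBE2C at 237 and 31.9 CPM and MKI67 at 89.4 and 18.8 CPM, and their part in the other differences was not tested. The D10_dSMADi values here rest on 21 cells. Of the 69 cells of D10_XAV939, 6 had a doublet score over 0.25, and of the 21 cells of D10_dSMADi, 0 did.

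Several ratios of the whole cultures came with these few cells. Of all STMN2 UMIs, 50.0% lay in 1.11% of D10_XAV939 cells and 0.378% of D10_dSMADi cells, and of NEFM UMIs in 0.765% and 0.416%. STMN2 had 17.3 and 92.2 CPM over all cells, a log2 ratio of 2.41, and 3.33 and 6.80 CPM in the cells below the limit, a log2 ratio of 1.03 (0.82 to 1.24). For NEFM the log2 ratio went from 1.68 over all cells to -0.47 below the limit, for NHLH1 from 1.82 to -0.22, for DLL3 from 1.12 to -0.13, for CRABP1 from 0.68 to -0.03 and for CDKN1C from 0.77 to -0.01. Because the limit was set on the neuronal markers, their levels below it are limited by that choice. DCX, a microtubule gene of migrating neurons, behaved otherwise, with 3.31 and 19.8 CPM below the limit and a log2 ratio of 2.58 there, against 2.42 over all cells. Among cells below the limit, patterning and Wnt genes had log2 ratios of 2.59 for FZD5, 1.89 for SIX3, -3.58 for WLS and -4.82 for RARB.

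Most markers of other lineages were low, and SOX9, CXCR4 and the pluripotency marker LIN28A were among the exceptions. Of the 8 neural crest markers, SOX9 was higher, as given above, TFAP2A had 0.766 and 9.30 CPM, and the others had at most 1.31 CPM in either culture. SOX10 was at 0.114 and 0.0676 CPM. The 8 mesoderm markers summed to 2.19 CPM without and 2.24 CPM with XAV939, with TBXT at 0 UMIs in both. Of the 10 placode and surface ectoderm markers, only SIX4 reached 10 CPM, with 12.5 and 14.6 CPM. Of the 8 endoderm markers, CXCR4, which progenitors of the brain also express, had 28.7 and 13.6 CPM and was lower with XAV939, while SOX17 and GATA4 were at most 0.0270 CPM. Of the 8 pluripotency markers, 4 reached 10 CPM and none of these reached 2-fold, with LIN28A, also expressed by early neural cells, at 383 and 438 CPM. The immediate early and heat shock genes, which can mark stress during dissociation, had 8 of 10 members above 10 CPM, none past 2-fold and a median log2 ratio of -0.06. Among the progenitor markers, SOX3 was lower with 165 and 67.9 CPM, and PROM1 higher with 7.65 and 17.9 CPM.

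Shares of cells with a UMI, after thinning to 10000 UMIs, separated the cultures in the same direction as the levels for the genes of large ratios. SIX3 was found in 24.03% (95% interval 22.4 to 25.7%) of D10_dSMADi and 60.9% (58.9 to 62.9%) of D10_XAV939 cells, and in 2.26% of D0 cells. The D0 cells, with a median of 67232 UMIs before thinning, went through the same droplet run and should lack most neural genes. Their share is therefore given beside as a reference for free RNA. For genes that D0 cells may express themselves, such as AXIN2, the D0 share cannot be read as free RNA and gives no background. Where free RNA adds a similar number of UMIs to every droplet, thinning removes more of it from the deeper D0 cells, and the thinned D0 share can understate it. WLS was found in 87.7% and 19.3% of cells and in 5.52% at D0, FZD5 in 29.5% and 83.0% (16.1% at D0), and IGFBP3 in 28.7% and 67.7% (6.24% at D0). PAX6 was found in 87.3% and 69.6% and EMX2 in 39.7% and 27.2% of cells, with 4.89% and 0.995% at D0. The Wnt readout genes AXIN2 (3.85% and 2.85%, with 5.79% at D0) and LEF1 (8.99% and 9.48%, with 0.452% at D0) were found in few cells of both. LEF1 was above its share at D0, and for AXIN2 the D0 share was not used as a background. STMN2 was found in 3.32% and 6.59% of cells, under its D0 share of 11.1%, but cells with a UMI held a mean of 9.12 and 18.7 UMIs. DLX2 was found in 0.378% and 0.255% of cells, and in 0 of 1105 cells at D0, which allows up to 0.271%. GAD1 was found in 0.113% and 0.510%, with 0.362% at D0. Without thinning, SIX3 was found in 56.8% of D10_dSMADi and 87.5% of D10_XAV939 cells and WLS in 98.4% and 40.8%, with 15.1% for SIX3 and 33.4% for WLS at D0. FZD5 was found in 63.2% and 93.7% of cells without thinning and in 63.3% at D0. Shares without thinning are not at like depth. D0 cells had a median of 67232 UMIs, against 32391 in D10_dSMADi and 25495.5 in D10_XAV939. At 10000 UMIs per cell, WLS in D10_XAV939 (19.3% against 5.52%) and FZD5 in D10_dSMADi (29.5% against 16.1%) were above D0. The part of free RNA in these shares was not tested.

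**Figure D5:**
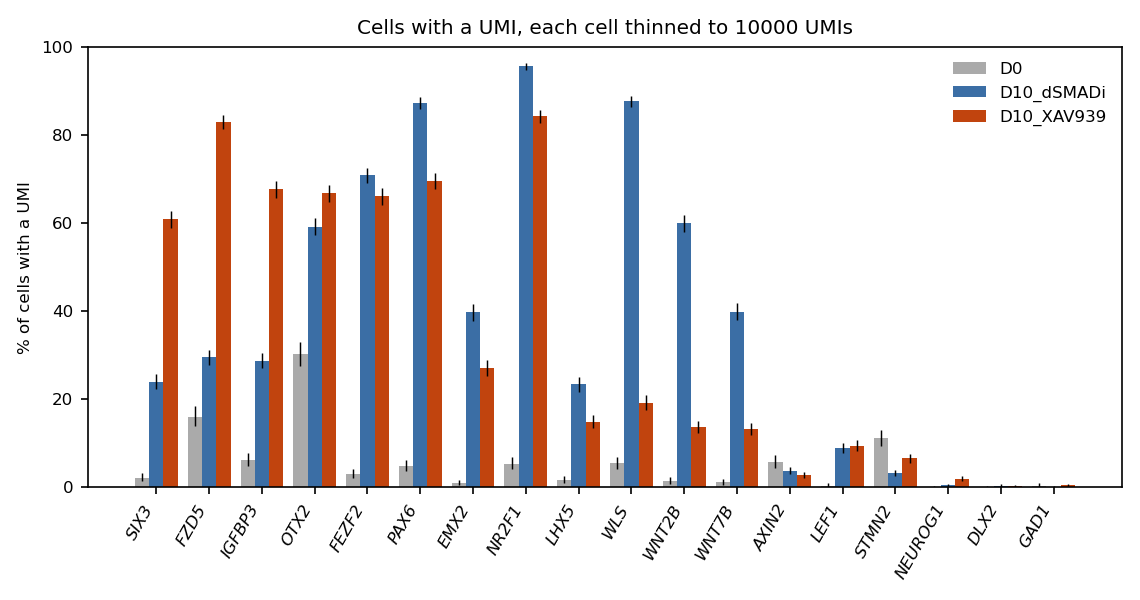
Percent of cells with at least 1 UMI of each gene after thinning each cell to 10000 UMIs, at D0 (gray), in D10_dSMADi (blue) and in D10_XAV939 (orange); error bars are 95% Clopper-Pearson intervals of counting error over cells of 1 culture. FZD5 and WLS stand in opposite orders in the D10 cultures, at 29.5% and 83.0% and at 87.7% and 19.3%, while AXIN2, DLX2 and GAD1 are low in all 3.

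Cells without a UMI of either gene after thinning were also compared apart, although they still held UMIs of both before thinning. In the 521 D10_XAV939 and 734 D10_dSMADi cells with no MKI67 and no TOP2A UMI, the log2 ratio was 1.84 for SIX3, 2.32 for FZD5, -3.53 for WLS and -5.30 for RARB. Over all cells these were 1.88, 2.56, -3.57 and -4.83. Without MKI67 or TOP2A UMIs, AXIN2 had 3.83 CPM in D10_dSMADi and 1.62 CPM in D10_XAV939, a log2 ratio of -1.24 (-2.04 to -0.51). Other β-catenin feedback targets went both ways there, with NKD2 at -1.24 (-2.23 to -0.35), ZNRF3 at -0.56, LEF1 at -0.10, TCF7 at 0.43 and LGR5 at 1.20 (0.56 to 1.84). AXIN2, NKD2, TCF7 and LGR5 were under 10 CPM in both. In these cells 150 genes were at least 2-fold higher with XAV939, in place of 94 over all cells, and 117 lower, in place of 109. STMN2 had 53.3 CPM in D10_dSMADi and 330 CPM in D10_XAV939 there, above its levels over all cells. The part of neuronal cells in the count of 150 was not tested.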

How the data were processed

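Droplet-based single-cell RNA sequencing was analyzed for 1 pooled run of 5 tagged cultures. Per the file headers, the deposited matrices of UMI counts per gene and cell were made with Cell Ranger 6.1.2, whereas the submitters' processing notes name Cell Ranger 3.1 and GRCh38. The authors had assigned barcodes to cultures by tag, and the counts were not normalized. Here, cells were kept as stated at the start, and UMIs were summed per condition and scaled to CPM over all genes. Log2 ratios are of CPM, with 95% intervals from the exact binomial split of UMIs. Calls, list medians and list ranges add 1 CPM to both levels and require 10 CPM in 1 condition. Genes with at most 3 UMIs in both cultures were given no ratio. Named were all genes of 29 lists and the 15 largest differences in each direction among genes of at least 50 CPM, without sex-specific genes or clone names. Some genes that met this rule are not reported here. Members and lists were chosen with earlier results of these data known, and the cell share of WNT7B was added after values were seen. Cells were thinned without replacement to 10000 UMIs for shares. A share of 0 allows up to 3 counts of the total. No doublets were removed: Scrublet (scanpy 1.11.5) marked 8 and 4 cells of D10_XAV939 and D10_dSMADi automatically, too few to rely on, and 54 (2.30%) and 70 (2.64%) cells had a score over 0.25, whose removal was an alternative. Other alternatives varied the cell limits, scaling, weight of cells, expression floor, pseudocount, depth and cells compared. Gene positions are from GENCODE 44. Python 3.11.15, numpy 2.4.6, scipy 1.17.1 and pandas 2.3.3 were used. The calls were tested on simulated data that held counting error only, without variation between cells or cultures.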

Additional observations from a re-analysis of the deposited data

Results flagged for a closer look

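Of 36 named genes past 2-fold at D10 that also had at least 10 CPM at D5, 6 had ratios of opposite sign on the 2 days and a D5 interval that left out 0. Over all genes past 2-fold at D10 with that level at D5, 48 of 56 higher and 56 of 59 lower genes had the same direction at D5. Those counts set no limit on the interval. With 1 culture per condition and day, the difference between days was not tested. CAPN6 had a log2 ratio of -0.89 at D5 and 1.83 at D10. SHISA2 had -1.25 and 1.97. TAGLN had -0.29 and 2.05, and RHOU had -0.26 and 2.13. DLL3 had -0.18 and 1.12, and in D10 cells below the neuronal limit its log2 ratio was -0.13. SOX3 had 0.10 at D5 and -1.28 at D10.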

How the results depend on the processing

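Counts of genes past 2-fold over 94 higher and 109 lower moved by more than 1.5 times under a few settings. A floor of 1 CPM gave 176 and 204, as did requiring only more than 3 UMIs, a floor of 50 CPM gave 28 and 39, and adding 10 CPM gave 41 and 54. Cells with no MKI67 and no TOP2A UMI, where STMN2 was higher in both cultures than over all cells, gave 150 higher and 117 lower. The other settings gave 84 to 106 higher and 108 to 133 lower. Without thinning, the shares of cells at the neuronal limit were 4.55% in D10_XAV939 and 2.00% in D10_dSMADi. For 52 named genes past 2-fold, 569 of 572 ratios had the same sign, 562 were still past 2-fold, and 44 genes were past 2-fold under all 11 settings. The exceptions were NEFM at -0.47, NHLH1 at -0.22 and DLL3 at -0.13 in cells below the neuronal limit, a set defined by neuronal markers. ELAVL3 (0.22) and SFRP2 (-0.98) were under 2-fold in the same cells, DMRTA2 (-0.68) and CXCR4 (-0.86) in cells with no MKI67 and no TOP2A UMI, and CHAC1 (0.973 to 0.996) under 3 settings of scaling, weight and depth. Of 308 comparisons of cell shares, 303 had the same direction, and the others were DLK1, DLX2 and OTX2 without thinning and LEF1 both without thinning and at the lower thinning depth. The scaling by the median of ratios shifted log2 ratios by 0.03. No paired analysis was possible because each condition was 1 culture without replicate numbers, and no replicate could be left out. Effects of XAV939 and differences between single cultures cannot be told apart.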
